A study of Mus musculus with 4 samples.

Results

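Neurotensin and its receptors are 4 of the 31053 genes in the count matrices: *Nts*, which encodes the peptide precursor, *Ntsr1* and *Ntsr2*, which encode its G protein-coupled receptors, and *Sort1*, which encodes sortilin. They were found by gene name and followed through single-nucleus RNA counts of the hypothalamic arcuate nucleus (ARC). The nuclei came from wildtype male C57BL/6J mice killed at 10 weeks of age, 3 weeks after either deoxycorticosterone acetate with saline to drink (DOCA-salt), a model of hypertension with low renin, or sham treatment (Sham). Each treatment had 2 libraries, and each library pooled nuclei of 2 mice from tissue punches, so values of single mice cannot be told apart and a punch can hold neighboring tissue. Values below are given in the order of libraries DOCA-salt 1 and 2, then Sham 1 and 2. *Nts* was picked with its lower level in the DOCA-salt libraries already known, so its levels by treatment are a description without a test. The receptors were tested. Nuclei in the neuron gate with 5 or more UMIs of *Nts* (unique molecular identifiers, each a captured transcript) are called source neurons below. There were 427 of them, beside 24720 other neurons and among 39176 nuclei in all. They were 427 of the 542 nuclei with that many *Nts* UMIs, and the rest lay in other classes.

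Neurotensin is a small peptide of brain and gut that neurons cut from a larger precursor at pairs of basic residues and release from dense-core granules, together with the related peptide neuromedin N. Its receptors NTSR1 and NTSR2 signal mainly through Gq and calcium, while sortilin belongs to the Vps10p-domain family and sorts proteins between the Golgi apparatus, endosomes and the cell surface. In the hypothalamus neurotensin is known for effects on feeding, drinking, body temperature and the release of pituitary hormones.

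On GRCm38, *Nts* (ENSMUSG00000019890) lies on the minus strand of chromosome 10 from 102481756 to 102490486 and has 4 exons. *Ntsr1* (ENSMUSG00000027568) lies on the plus strand of chromosome 2 from 180499976 to 180544980 with 5 exons, and *Ntsr2* (ENSMUSG00000020591) on the plus strand of chromosome 12 from 16653382 to 16660227 with 4 exons. *Sort1* (ENSMUSG00000068747) lies on the plus strand of chromosome 3 from 108284082 to 108361511 with 20 exons. The stretch of the *Nts* message that becomes peptide is shown here because it is what the counted transcript is made for. It comprises 75 coding bases of exon 4, codons 140 to 164 of 169, at chr10:102482349-102482423 of GRCm38, written 5′ to 3′ along the minus strand. Capitals mark the 6 codons of neuromedin N and then the 13 codons of neurotensin. Lower case marks the Lys-Arg codon pairs that flank them, which are 3 of the 4 such pairs in the coding sequence.
Nts: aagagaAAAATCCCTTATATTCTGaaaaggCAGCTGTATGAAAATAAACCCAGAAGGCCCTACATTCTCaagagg

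The libraries were unlike in size, depth and regional content. Kept were 10307, 18907, 2203 and 7759 nuclei with medians of 2401, 2534, 8215 and 3278 UMIs, so Sham 1 was the smallest and the deepest. Detection is therefore also given after each nucleus was thinned to 1000 UMIs, which left out 1978, 3603, 12 and 925 shallower nuclei. Between 1 and 44 cell barcodes were shared by a pair of libraries, at most 0.567% of the smaller one. None of them was a source neuron in both libraries of a pair. *Agrp*, a marker of the ARC, stood at 209, 1.57, 52.1 and 86.2 CPM (UMIs of the gene per 1000000 UMIs), *Pmch* of the lateral hypothalamus at 29.2, 2849, 43.9 and 30.7 CPM, and *Ppp1r1b* of the striatum at 61.5, 3.46, 4.52 and 3.34 CPM. DOCA-salt 2 was lowest in 4 of 5 ARC markers and highest in both lateral hypothalamic, all 3 paraventricular and both ventromedial markers, and DOCA-salt 1 was highest in all 4 striatal markers. Of 5 suprachiasmatic markers *Vip*, at 1.90, 3.96, 26.7 and 25.1 CPM, was lower in both DOCA-salt libraries, as *Nts* was, *Prok2* was higher in both (8.76, 5.88, 4.38 and 4.55 CPM), and *Nms*, *Rgs16* and *Lhx1* were highest in DOCA-salt 2 and overlapped. Of 5 thalamic and mammillary markers *Prkcd* was lower in both DOCA-salt libraries (5.80, 5.98, 7.76 and 7.21 CPM), and the others overlapped. The part of regional content in the values below was not tested. At the level of a pool, fewer cells of a type and less RNA per cell cannot be told apart. The p-values of treatment within a class or whole library measure the spread between pools. Where classes or source neurons are compared with the library as a block, they set that difference against its spread between libraries. In both cases the spread of a gene is estimated in part from all genes tested. A small SE or FDR therefore does not show that the libraries agree. *Gal*, for example, was called higher in source neurons, though it stood at 16.85 against 52.67 CPM in DOCA-salt 1.

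*Nts* was lower in both DOCA-salt libraries than in both Sham libraries. Its level was 28.3 CPM (95% Poisson interval 26.6 to 30.1) in DOCA-salt 1, 31.2 (29.9 to 32.6) in DOCA-salt 2, 194 (188 to 200.1) in Sham 1 and 133 (129 to 137) in Sham 2, from 1060, 2167, 4125 and 5257 UMIs. The groups did not overlap, and the intervals cover counting error only. How many of all genes separate the treatments in this way was not counted. The log2 fold change of DOCA-salt over Sham was -2.50 (SE 0.24), and it stayed between -2.78 without Sham 2 and -2.18 without Sham 1. It was -2.40 without DOCA-salt 1 and -2.62 without DOCA-salt 2. Both of these libraries stood apart in regional markers and each refit kept the other, so neither refit takes regional content away. *Nts* was found in 5.19%, 5.27%, 53.6% and 19.8% of nuclei, and after thinning in 2.04%, 2.07%, 13.2% and 8.24%.

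The way *Nts* UMIs were spread over nuclei also differed. Nuclei with 20 or more *Nts* UMIs numbered 0, 8, 38 and 47 and held 0%, 12%, 35.3% and 28.3% of all *Nts* UMIs of their library. The highest count in a single nucleus was 18, 54, 91 and 86 UMIs. Nuclei with exactly 1 *Nts* UMI numbered 345, 691, 621 and 876 and held 32.5%, 31.9%, 15% and 16.7% of the *Nts* UMIs. DOCA-salt 1 had no nucleus of 20 or more, while in both Sham libraries such nuclei held more *Nts* UMIs than nuclei with 1, with 2 to 4, with 5 to 9 or with 10 to 19.

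**Figure D1:**
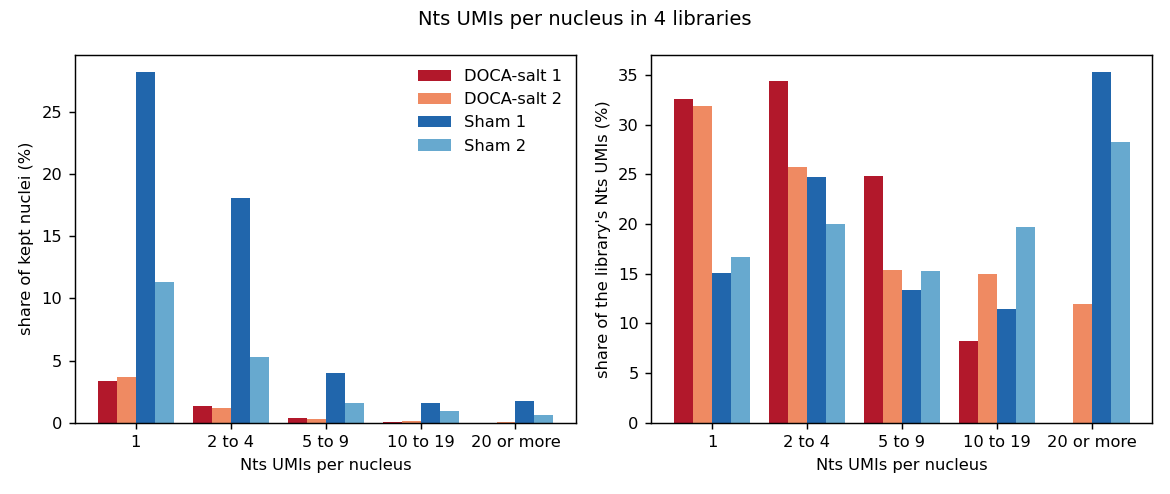
Share of kept nuclei (left, %) and share of a library's Nts UMIs (right, %) by the number of Nts UMIs in a nucleus, with a bar for each of the 4 libraries and nuclei without Nts left out. Nuclei of 20 or more UMIs held 35.3% and 28.3% of Nts UMIs in the Sham libraries, 12% in DOCA-salt 2 and none in DOCA-salt 1.

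Nuclei were gated into classes by marker genes that include none of the 4 genes. *Nts* was found in every class, glia and vessels included. In neurons it stood at 30.8, 32.4, 203 and 142 CPM, in GABAergic neurons at 20.9, 36.1, 299 and 217 CPM, and in glutamatergic neurons at 57.2, 11.6, 62.1 and 26.6 CPM. Among classes with at least 10 nuclei in each library, the treatments overlapped in glutamatergic neurons only, with the highest DOCA-salt value close to the highest Sham value, and their Sham 1 value rests on 43 nuclei. Astrocytes had 7.88, 16.3, 119 and 122 CPM and oligodendrocytes 19.2, 23.8, 110.0 and 83.2 CPM, and the groups did not overlap in either. Microglia, which are not known as a source of neurotensin, still had 27.3, 31.7, 194 and 116 CPM. DOCA-salt over Sham, the log2 fold change was -3.19 (SE 0.35) in GABAergic neurons, -0.13 (SE 0.60) in glutamatergic neurons, -3.28 (SE 0.29) in astrocytes and -2.40 (SE 0.29) in microglia. It was -2.20 (SE 0.25) in oligodendrocytes, -1.98 (SE 0.24) in oligodendrocyte precursors, -3.20 (SE 0.46) in endothelial cells and -1.11 (SE 0.38) in mural cells. These differences between classes were not tested for *Nts*.

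Away from its richest nuclei, *Nts* was as high in classes not known to make it as in neurons. Outside nuclei of 5 or more *Nts* UMIs, the level in neurons was 20.5, 18.3, 86.2 and 51.3 CPM and in all non-neuronal classes together 15, 16.9, 90.7 and 49.7 CPM. Neurons and non-neuronal nuclei lay closer in the other libraries than in DOCA-salt 1, where astrocytes had 7.88 CPM, and both were higher in Sham. Median depths were 3109, 3056, 8811.5 and 4022 UMIs in neurons and 1764, 1662, 6606.5 and 2754.5 UMIs in non-neuronal nuclei. The limit of 5 UMIs caps the CPM lower in deeper nuclei, and its part in how near these levels lay was not tested. Droplets also capture RNA free in the suspension, whose part was not tested, and since the level in neurons under 5 UMIs was near that in non-neuronal nuclei, it is not read as expression by those neurons at large.

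Source neurons were few in DOCA-salt and more frequent in Sham. There were 40, 61, 133 and 193 of them, which is 0.603% (exact Clopper-Pearson 95% interval 0.431 to 0.820), 0.518% (0.396 to 0.664), 8.23% (6.94 to 9.68) and 3.78% (3.27 to 4.34) of neurons. Shares in both DOCA-salt libraries were below those in both Sham libraries. Source neurons held 27.5%, 33.1%, 49.7% and 51.2% of all *Nts* UMIs. Within them the *Nts* level was 817, 1261, 1093 and 1370 CPM, and the treatments overlapped. The limit of 5 UMIs puts a floor under this level that varies with depth, so it does not show whether *Nts* per cell differed. These nuclei were chosen by their *Nts* UMIs, and neurons just outside the limit, with 4 UMIs, numbered 16, 26, 49 and 46, against 15, 13, 31 and 27 just inside it with 5 UMIs.

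Nuclei of 5 or more *Nts* UMIs were also found outside neurons, where they made up 0.314%, 0.447%, 5.00% and 2.76% of the non-neuronal classes (6, 19, 26 and 48 nuclei). The intervals of neurons and non-neuronal nuclei overlapped in all 4 libraries. In oligodendrocytes the share was 0%, 0.154%, 3.91% and 1.34%, in astrocytes 0%, 0.0705%, 1.45% and 2.25%, and in microglia, at median depths of 2892, 3386, 7625.5 and 4347 UMIs, 1.10%, 1.00%, 8.33% and 2.56% (3, 5, 7 and 7 nuclei). Microglia thus had a share at or above that of neurons in 3 of 4 libraries, so the share of neurons with 5 or more *Nts* UMIs by itself is not read as a share of neurons that express *Nts*. With 3 or more *Nts* UMIs left after thinning to 1000 UMIs, the shares were 0.0488%, 0.154%, 1.43% and 1.23% of neurons against 0.0716%, 0.0676%, 0.581% and 0.449% of non-neuronal nuclei. Neurons exceeded non-neuronal nuclei on this measure in every library but DOCA-salt 1. These shares rest on 3, 17, 23 and 59 neurons and on only 1, 2, 3 and 7 non-neuronal nuclei, and their difference was not tested. With an *Nts* share also at least 10 times that of the library, 39, 59, 23 and 96 source neurons remained, which is 0.587%, 0.501%, 1.42% and 1.88% of neurons. This limit follows the *Nts* level of each library, so it was stricter in Sham and these shares rest on unlike thresholds. Source neurons had medians of 7403.5, 8222, 13868 and 9472 UMIs and were deeper than neurons in general in every library. The part of depth, free RNA and doublets in single source nuclei was not tested, and without the nuclei of highest doublet score 36, 44, 128 and 171 source neurons were left.

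**Figure D2:**
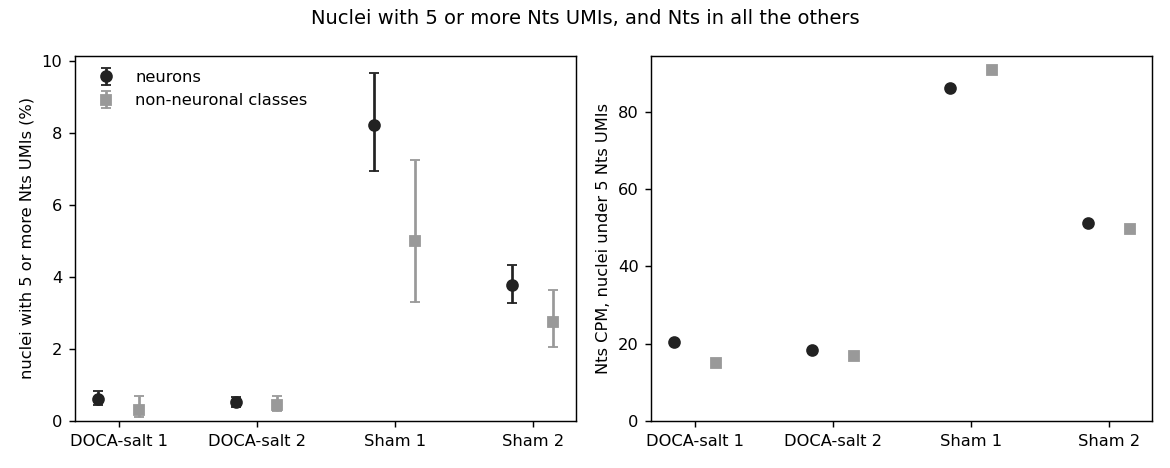
Left, nuclei with 5 or more Nts UMIs as a share (%) of neurons (black circles) and of non-neuronal classes (gray squares) in each library, with exact 95% intervals of counting error. Right, Nts level (CPM) in neurons and in non-neuronal nuclei under 5 Nts UMIs. These were 20.5 and 15 CPM in DOCA-salt 1 and 86.2 and 90.7 CPM in Sham 1.

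*Ntsr1*, the receptor of higher affinity for neurotensin, was scarce in all 4 libraries. It stood at 5.26, 11.6, 4.47 and 6.10 CPM from 197, 807, 95 and 241 UMIs, no nucleus had more than 4 UMIs, and after thinning 0.528%, 1.21%, 0.456% and 0.688% of nuclei had a UMI. The treatments overlapped, DOCA-salt 2 being highest and Sham 1 lowest. The log2 fold change of DOCA-salt over Sham was 0.65 (SE 0.43, FDR 0.69 by edgeR's quasi-likelihood test with Benjamini-Hochberg adjustment, used for every FDR here unless stated). It turned to -0.10 without DOCA-salt 2. In neurons it was 0.61 (SE 0.46, FDR 0.71), and this moved to 1.12 (FDR 0.035) without DOCA-salt 1 and to -0.23 (FDR 0.76) without DOCA-salt 2, so the call and the direction hang on a single DOCA-salt library.

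Across classes *Ntsr1* had no high class. Means over the 4 libraries ran from 3.85 ± 2.90 CPM (SD, n = 4) in oligodendrocytes and 5.06 ± 1.08 in astrocytes through 7.27 ± 3.55 in neurons and 7.80 ± 4.93 in microglia to 8.72 ± 2.18 in endothelial cells, with neighbors in this order differing by less than the larger of their SDs. Against neurons it was lower in oligodendrocytes, by a log2 fold change of -0.82 (SE 0.27, FDR 0.029), from no more than 7, 24, 1 and 4 UMIs in that class. The values there were 5.38, 7.15, 1.01 and 1.86 CPM against 5.19, 12.4, 4.76 and 6.68 CPM in neurons, so DOCA-salt 1 did not share the direction. Glutamatergic and GABAergic neurons had log2 values that differed by -0.03 (SE 0.26, FDR 0.99), with 15, 48, 1 and 20 UMIs in the former. Microglia and vessels had levels like those of neurons, so these values could not be told from background, and a difference of neurons from astrocytes, precursors, microglia or vessels was not detectable at this depth.

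*Ntsr2*, the receptor known from astrocytes, was the member with a clear class. In astrocytes it stood at 910.0, 961, 599 and 636 CPM, against 65.0, 116, 88.7 and 85.8 CPM in neurons, and no astrocyte value came near a neuronal one. After thinning, 58.2%, 60.9%, 42.6% and 53.1% of astrocytes had an *Ntsr2* UMI, compared with 4.80%, 8.79%, 8.20% and 7.33% of neurons. With the library as a block the log2 fold change of astrocytes over neurons was 3.23 (SE 0.09, FDR 7.6e-33). In that comparison 40.6% of all genes tested passed, and *Ntsr2* ranked 25 of 15077 by p. Astrocytes made up 5.74% to 7.51% of nuclei and held at most 33.2% of *Ntsr2* UMIs.

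The other 5 non-neuronal classes tested also had more *Ntsr2* than neurons, by far smaller amounts. Over neurons, the log2 fold change was 0.92 (SE 0.11) in mural cells, 0.79 (SE 0.09) in endothelial cells, 0.72 (SE 0.06) in microglia, 0.43 (SE 0.07) in oligodendrocyte precursors and 0.33 (SE 0.07) in oligodendrocytes. FDRs were 5.1e-14, 2.3e-12, 9.6e-14, 6.5e-06 and 0.00072 in this order, and the shares of all tested genes that passed were 11.7%, 14.9%, 14.1%, 19.2% and 27%. The order of mean levels below astrocytes (777 ± 185 CPM) was mural cells (168 ± 77.6), endothelial cells (150.1 ± 36.4), microglia (146 ± 38.0), precursors (122 ± 38.9), oligodendrocytes (103 ± 20.7) and neurons (88.9 ± 20.9, SD, n = 4), and neighbors from mural cells downward differed by less than their SD. The summed level of the 8 astrocyte gate markers moved with it, at 1952 to 3139 CPM in mural cells, 1697 to 2590 in endothelial cells, 1340 to 1998 in microglia, 1352 to 2193 in precursors, 1264 to 1776 in oligodendrocytes and 763 to 1422 in neurons, against 8471 to 9385 in astrocytes. The part of astrocyte RNA in these smaller differences was not tested. Among neurons *Ntsr2* was lower in glutamatergic nuclei (43.2, 82.0, 65.5 and 48.2 CPM) than in GABAergic nuclei (55.6, 106, 82.8 and 77.3 CPM) in each library, with a log2 fold change of -0.43 (SE 0.09, FDR 0.012) where 8.12% of genes passed. Neurons with UMIs of both transmitter kinds entered neither class and averaged 103 CPM, beside 80.3 in GABAergic and 59.7 in glutamatergic nuclei. The part of depth and background in this difference was not tested, and the glutamatergic value of Sham 1 rests on 43 nuclei.

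By treatment, *Ntsr2* in astrocytes was higher in both DOCA-salt libraries, and the difference did not pass the test. The log2 fold change was 0.54 (SE 0.22, unadjusted p 0.030, FDR 0.51), the groups did not overlap, and 0.0615% of the genes tested in astrocytes passed. How many of all genes separate the treatments without overlap was not counted, so the separation by itself is not read as a difference. The summed astrocyte markers in these nuclei were 8471, 9123, 9112 and 9385 CPM and did not separate the treatments. The term for a change in astrocytes unlike that in neurons was 0.57 (SE 0.14, FDR 0.064) on the log2 scale. It did not pass either, where 0.0995% of genes did. In neurons the log2 fold change by treatment was 0.03 (SE 0.30, FDR 0.98) and over whole libraries 0.19 (SE 0.24, FDR 0.82) from 111, 167, 119 and 118 CPM. Without DOCA-salt 2, the library richest in *Ntsr2*, these turned to -0.50 and -0.18, neither passing.

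*Sort1* was found in every class and was highest in oligodendrocytes. Its level there was 79.9, 85.2, 131 and 128 CPM, against 49.9, 52.9, 68.8 and 51.3 CPM in neurons, and oligodendrocytes exceeded neurons within each library. The log2 fold change was 1.03 (SE 0.10, FDR 1.9e-08), and 27% of genes passed in this comparison. Oligodendrocytes averaged 106 ± 27.2 CPM (SD, n = 4), while the other glial, vascular and broad neuronal classes lay between 51.0 ± 11.7 in precursors and 64.8 ± 19.8 in glutamatergic neurons, with neighbors in that order differing by less than their SDs. The level in oligodendrocytes was 1.60 to 2.49 times that in neurons of the same library. Only in oligodendrocytes did *Sort1* pass the test against neurons, among the 6 non-neuronal classes compared.

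Within oligodendrocytes both DOCA-salt values of *Sort1* were below both Sham values. The same held in whole libraries, precursors, microglia and glutamatergic neurons. In endothelial cells the groups were also apart, but with DOCA-salt higher (means 58.9 against 47.2 CPM). How many of all genes separate the treatments was not counted, so the separation by itself is not read as a difference. In oligodendrocytes the log2 fold change was -0.74 (SE 0.20, unadjusted p 0.0030, FDR 0.21), with 0.0436% of genes passing in that class. It was -0.68 with an FDR of 0.046 when DOCA-salt 1 was left out, and from -0.83 to -0.71 with FDRs above 0.05 when any other library was. The summed level of the oligodendrocyte gate markers in the same nuclei was 3186, 4762, 6168 and 6017 CPM, lower in DOCA-salt as well, and its part in the *Sort1* values was not tested. The term for a change unlike that in neurons was -0.56 (SE 0.14, FDR 0.17), where 0.0883% of genes passed. Over whole libraries *Sort1* stood at 51.5, 54.3, 72.5 and 56.4 CPM with a log2 fold change of -0.33 (SE 0.18, FDR 0.65), and in neurons at -0.26 (SE 0.20, FDR 0.71). With 2 pools on each side an exact two-sided permutation test cannot fall below p = 0.333, so single values were compared through the fits over all genes.

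**Figure D3:**
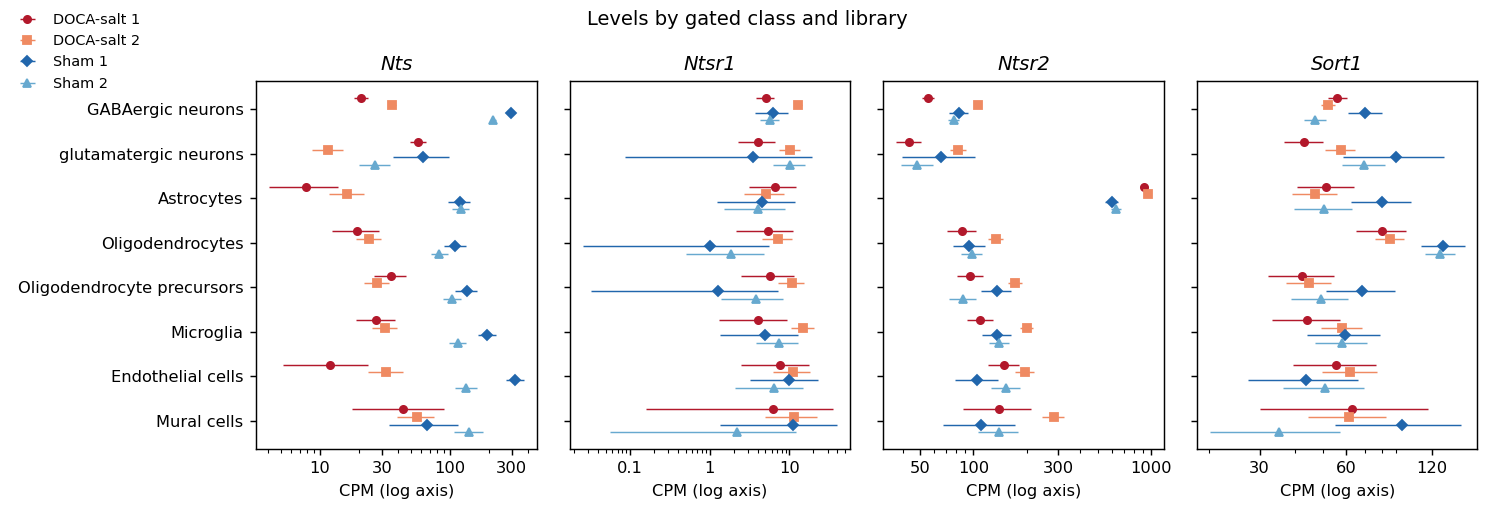
Level (CPM, log axes) of Nts, Ntsr1, Ntsr2 and Sort1 in 8 gated classes, with a point for each library and bars for the 95% Poisson interval of counting error. Nts separates Sham from DOCA-salt in glia as in GABAergic neurons, Ntsr2 stands at 599 to 961 CPM in astrocytes, and Sort1 is highest in oligodendrocytes at 79.9 to 131 CPM.

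No gene passed between treatments over whole libraries (0% of 16564, edgeR), while 1399 had an unadjusted p under 0.05. DESeq2 called 109 of 13673 genes, and edgeR without a filter on low counts called 142 of 23097. In neurons 0% of 15901 genes passed with edgeR, and 1281 had an unadjusted p under 0.05. The genes around neurotensin followed this background. None of the 12 genes of its processing and breakdown, which include the convertases *Pcsk1* and *Pcsk2* and the peptidases *Thop1*, *Nln* and *Mme*, passed over whole libraries, with a median log2 fold change of 0.02 beside 0.03 over all genes. None of the 11 Vps10p-domain receptors and partners of sortilin (median -0.06) and none of the 17 genes of Gq signaling (median -0.0036) passed either. The convertases were called lower in astrocytes than in neurons, with log2 fold changes of -0.72 for *Pcsk1* and -0.59 for *Pcsk2*. *Cpe*, which trims basic residues after the cut, was called higher there (0.55), as were *Ntrk2*, a receptor that sortilin helps transport (1.27), the sortilin relative *Sorcs2* (2.12), and *Itpr2*, the calcium channel downstream of Gq that astrocytes are known for (2.18). In all, 2 of 12 processing genes, 4 of 11 sortilin genes and 4 of 16 tested Gq genes were higher in astrocytes, and 5, 4 and 3 were lower, where 40.6% of all genes passed in either direction, with medians of -0.29, -0.13 and -0.08 beside -0.05 over all genes. In oligodendrocytes 0 of 12, 2 of 11 and 1 of 16 were higher than in neurons and 6, 2 and 5 lower, where 27% of all genes passed, with medians of -0.30, -0.02 and -0.20 beside -0.04. There *Sort1* and its relative *Sorcs1* (0.31) were the sortilin genes called higher.

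Over the 8 classes, the genes whose log2(CPM + 1) profile was most like that of each member were taken by Pearson correlation among 11774 genes. They were *Vgf* (r = 0.97), *Ecel1* (0.96) and *Akap5* (0.96) for *Nts*, all highest in GABAergic neurons. For *Ntsr2* they were *Slc6a11* (0.999), which takes up GABA, *Agt* (0.997), which encodes angiotensinogen and is also a gate marker of astrocytes, and *Glud1* (0.997), which breaks down glutamate. For *Sort1* they were *Map7d1* (0.99), *Smco3* (0.98) and *Usp31* (0.96), all highest in oligodendrocytes, and for the scarce *Ntsr1* they were *Clip1* (0.96), *Bmpr2* (0.96) and *Rasd1* (0.95), highest in endothelial cells. These values describe 8 class means that share libraries, depth and background.

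The transmitter genes of source neurons set DOCA-salt 1 apart. In that library 18 of 40 source neurons (45%) were glutamatergic, having UMIs of *Slc17a6*, the vesicular glutamate transporter, and none of *Gad1*, *Gad2* or *Slc32a1*, which make and load GABA. In the other libraries 0 of 61, 0 of 133 and 0 of 193 were, with exact 95% upper limits of 5.87%, 2.73% and 1.89%. Glutamatergic nuclei made up 14.5%, 11.1%, 2.66% and 8.15% of all neurons, so in Sham 1 the share among source neurons could not be told from that among all neurons. The class needs the absence of *Gad1*, *Gad2* and *Slc32a1* UMIs, its share was lowest in the deepest library, and source neurons were deeper than neurons in general. The part of depth in these shares was not tested. GABAergic were 3, 33, 37 and 101, which is 7.5%, 54.1%, 27.8% and 52.3% of source neurons. Among all neurons GABAergic nuclei made up 51.5%, 55.3%, 25.2% and 46.4%. These lie within the exact 95% intervals of the source shares in every library but DOCA-salt 1. UMIs of both kinds were found in 19, 28, 96 and 92 source neurons. A share of both kinds was also common among all neurons, at 21.4%, 24.4%, 70.7% and 37.4%, and highest in the deepest library. *Gad2* stood at 185, 746, 951 and 1130 CPM in source neurons against 482, 666, 583 and 570 CPM in other neurons. It was lower in source neurons of DOCA-salt 1 and higher in those of the other libraries. *Slc17a6* showed the reverse, with 458, 127, 171 and 153 CPM in source and 198, 184, 273 and 244 CPM in other neurons. None of the 12 transmitter genes tested passed over the 4 libraries, in a comparison where 0.622% of all genes passed.

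The peptides found with *Nts* also differed between libraries, and the genes in this paragraph were chosen after their values were seen. In DOCA-salt 1, *Tac1*, which encodes substance P, stood at 1724 CPM in source neurons against 474 in other neurons, and 35 of the 40 nuclei had 5 or more *Tac1* UMIs. After thinning, 77.5% of source neurons and 22.5% of other neurons of that library had a *Tac1* UMI. None of the 42 nuclei that passed there as *Tac1* neurons, which needed 10 times the high share of *Tac1* in the library, was a source neuron. *Penk* (enkephalin) was at 503 against 181 CPM there, and the transcription factors *Foxp2* and *Lmx1b* at 359 against 120 and 59.0 against 6.36 CPM. *Crh* and *Vip* had no UMI in these 40 nuclei. Other neurons of that library had them at only 3.97 and 0.441 CPM, so a lower level was not detectable. In DOCA-salt 2, *Crh*, which encodes corticotropin-releasing hormone, was at 199 CPM in source neurons against 2.68 in other neurons. Of 9 nuclei that passed as *Crh* neurons in that library 7 were source neurons, and the second richest source neuron held 44 *Nts* and 39 *Crh* UMIs. Among *Vip* neurons of DOCA-salt 2, 1 of 9 was a source neuron. In Sham 1 7 of 11 *Crh* neurons and 12 of 15 *Vip* neurons were source neurons, and in Sham 2 1 of 2 and 5 of 38. In DOCA-salt 1 0 of 2 *Crh* neurons and 0 of 1 *Vip* neurons were. *Gal* neurons were source neurons in 0 of 60, 1 of 206, 8 of 26 and 11 of 66 cases. None of the 135, 17, 24 and 126 *Pomc* neurons was a source neuron, nor were any of the *Agrp* neurons except 2 of 31 in Sham 1. Among all neurons the shares were 0.603%, 0.518%, 8.23% and 3.78%. Near them were *Agrp* neurons in Sham 1 (6.45%) and *Gal* neurons in DOCA-salt 2 (0.485%). At shares this low, no source neuron among the *Pomc* or *Agrp* neurons of DOCA-salt, or the 24 *Pomc* neurons of Sham 1, shows no difference.

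The richest source neurons of the Sham libraries and of DOCA-salt 2 carried GABAergic genes. The first of Sham 1 held 89 *Nts* UMIs with 31 of *Gad2* and none of *Slc17a6*, *Crh*, *Vip* or *Gal*, and the first of Sham 2 held 86 with 28 of *Gad2*, 5 of *Gal* and none of *Slc17a6*. The first of DOCA-salt 2 held 54 *Nts* UMIs with 8 of *Gad2*, 4 of *Gad1*, 4 of *Slc32a1* and 1 of *Slc17a6*. The first of DOCA-salt 1 held 18 *Nts* UMIs with 6 of *Slc17a6*, 5 of *Tac1* and 1 each of *Gad1* and *Gad2*. In the transmitter genes beside *Nts*, DOCA-salt 1 was thus unlike the other 3 libraries, and DOCA-salt 2 was on the side of Sham. Pool and punched region cannot be told apart in this.

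**Figure D4:**
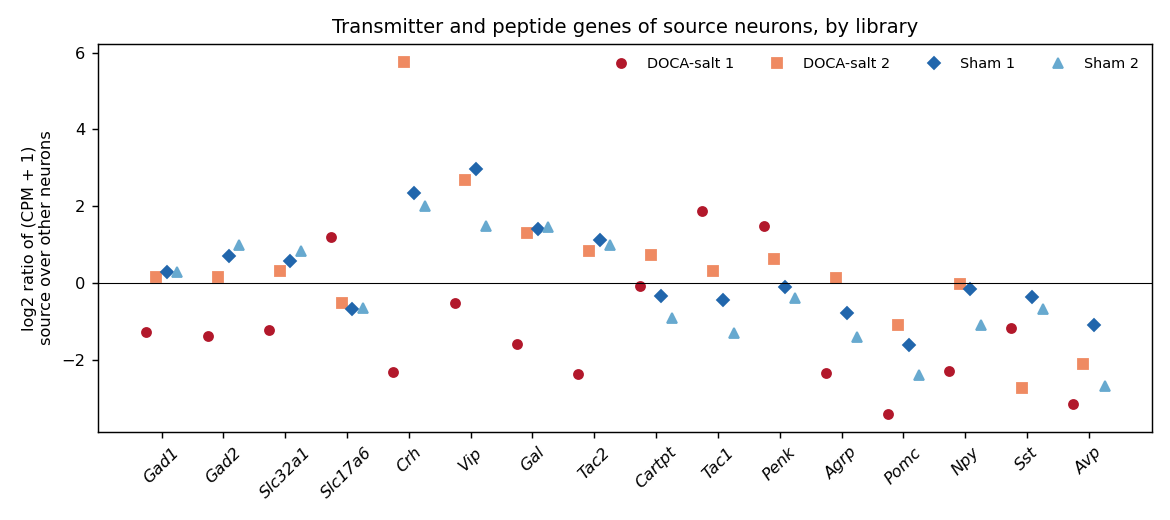
Log2 ratio of CPM + 1 in source neurons over other neurons for transmitter and peptide genes, with a point for each library and a line at equal levels. DOCA-salt 1 lies opposite to the other libraries for Gad1, Gad2, Slc32a1, Slc17a6, Gal and Tac2. It does so for Crh and Vip too, but from 0 CPM in source neurons against 3.97 and 0.441 CPM in other neurons, near the floor. All libraries lie below the line for Pomc, Sst and Avp, with Avp in DOCA-salt 1 at 0 against 7.9 CPM, near the floor.

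Genes were compared between source neurons and all other neurons of the same library, without *Nts*. Of 14468 genes 90 passed (0.622%), 54 higher and 36 lower in source neurons. Of these, 32 were higher and 34 lower in every library. The count was 252 without DOCA-salt 1, 122 without DOCA-salt 2, 93 without Sham 1 and 46 without Sham 2, so DOCA-salt 1 and Sham 2 moved it most. Of the 46 genes 40 were among the 90. Against other neurons of like depth 98 genes passed, 81 of them among the 90.

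The 10 genes with the largest rise that held in every library were *Wnt4*, *Lamp5*, *Glra2*, *Slitrk6*, *Gm48485*, *Rprm*, *Irs4*, *Adra2a*, *Pcdh20* and *Reln*. *Wnt4*, a secreted Wnt ligand, stood at 44.9, 40.5, 43.2 and 60.1 CPM in source neurons and at 19.6, 8.72, 16.0 and 22.9 CPM in other neurons, a log2 fold change of 1.51 (SE 0.15, FDR 4.1e-06). *Irs4*, an insulin receptor substrate of the hypothalamus, stood at 553, 118, 255 and 382 CPM against 201, 54.6, 157 and 192 CPM, a change of 1.05 (SE 0.10, FDR 2.0e-06). *Adra2a*, which encodes an inhibitory adrenergic receptor, rose by 1.02 (SE 0.16, FDR 0.00088) and *Glra2*, a glycine receptor subunit, by 1.24 (SE 0.20, FDR 0.0016) on the log2 scale. The others rose by 0.93 to 1.31, among them *Lamp5*, a membrane protein of GABAergic neurons, and *Reln*, which encodes reelin. The rule took only genes higher in every library, and *Lamp5* was barely so in DOCA-salt 1, at 56.2 against 55.1 CPM. Margins were also small in DOCA-salt 2 for *Slitrk6* (7.04 against 6.19 CPM, from 4 UMIs), *Reln* (29.9 against 27.0) and *Rprm* (29.9 against 27.1). In Sham 1 *Gm48485* stood at 9.07 against 7.775 CPM. Without Sham 2, *Slitrk6* (1.02, FDR 0.48) and *Gm48485* (0.71, FDR 1.00) no longer passed, and *Gm48485* also failed without DOCA-salt 2 (FDR 0.067). *Reln* and *Gm48485* did not pass with DESeq2 (FDR 0.093 and 0.17). *Gm48485* also failed against neurons of like depth (FDR 0.078) and without the nuclei of highest doublet score (FDR 0.059), and *Reln* with 10 or more *Nts* UMIs (FDR 0.42) or the share of 10 times (FDR 0.46).

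The 5 genes with the largest fall that held in every library were *Gabrd*, *Meis2*, *Pomc*, *Gnrh1* and *Avp*. *Pomc*, the precursor of melanocortins, stood at 36.5, 15.8, 62.4 and 64.1 CPM in source neurons and at 402, 35.3, 195 and 342 CPM in other neurons, a change of -2.17 (SE 0.16, FDR 4.3e-08). *Avp* (vasopressin) fell by 2.01 (SE 0.17) and the transcription factor *Meis2*, common in striatal neurons, by 2.19 (SE 0.28) on the log2 scale. *Meis2* rests on only 6, 6, 4 and 2 UMIs in source neurons. *Avp* had 0, 67, 79 and 59 UMIs there, and in DOCA-salt 1 other neurons had it at only 7.9 CPM, near the floor. *Gabrd*, a subunit of extrasynaptic GABA receptors, had 0, 0, 1 and 0 UMIs in source neurons, and *Gnrh1* (gonadotropin-releasing hormone) had 0, 0, 4 and 12, so no fold is given. *Gabrd* failed without DOCA-salt 1 (FDR 0.45) or Sham 2 (FDR 0.21), and *Gnrh1* without Sham 2 (FDR 1.00). With DESeq2 neither passed (FDR 0.50 and 1.00). *Gabrd* also failed without the nuclei of highest doublet score (FDR 0.19), and with 10 or more *Nts* UMIs *Gabrd* and *Meis2* failed (FDR 0.47 and 0.38).

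**Figure D5:**
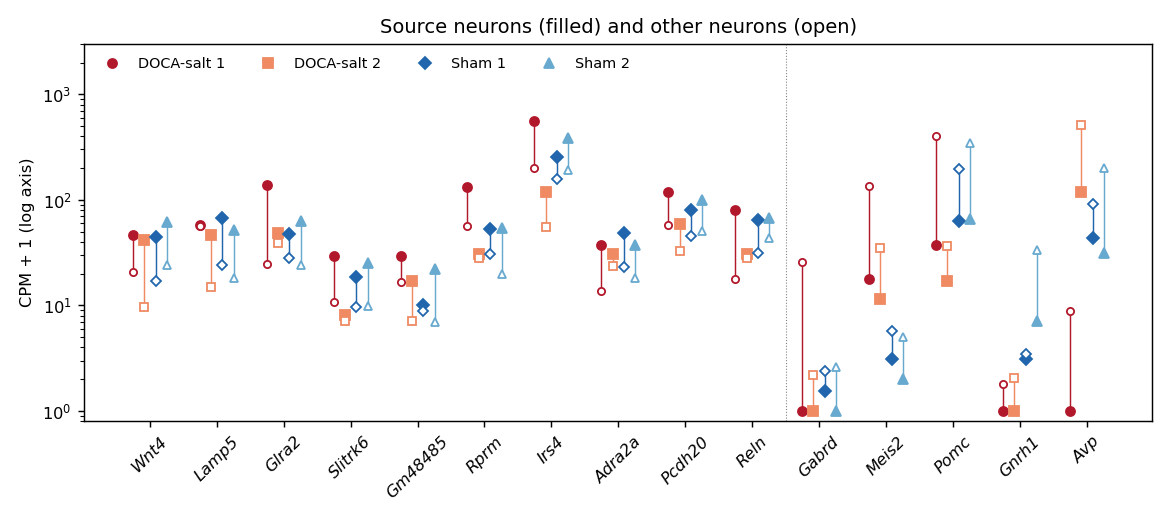
Level (CPM + 1, log axis) of the named genes in source neurons (filled) and other neurons (open), joined for each library, with the genes higher in source neurons left of the dotted line and those lower right of it. Wnt4 and Irs4 are higher in source neurons of all 4 libraries, and Pomc and Avp are lower, with Avp near the floor in DOCA-salt 1.

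By list, 3 of 25 tested peptides were higher and 9 lower in source neurons, where 0.622% of all genes passed in either direction. Their median was -0.66 beside -0.02 over all genes. Higher were *Crh* (3.57, SE 0.52, FDR 0.00045), *Vip* (2.35, SE 0.24, FDR 5.2e-06) and *Gal* (1.23, SE 0.16, FDR 8.7e-05), all absent or low in source neurons of DOCA-salt 1. *Crh* was 2.22 without DOCA-salt 2, and with DESeq2 neither *Crh* nor *Gal* passed. Lower were *Pomc*, *Avp*, *Hcrt*, *Agrp*, *Ghrh*, *Sst*, *Trh*, *Adcyap1* and *Npy*, from -2.17 to -0.83, which mark neurons of other kinds. *Agrp* was not lower in DOCA-salt 2 (1.76 against 1.53 CPM, near the floor), nor *Ghrh* in Sham 1 (37.3 against 36.6 CPM). *Npy* was about level in DOCA-salt 2 (14.1 against 14.4 CPM), and *Hcrt* was near the floor in DOCA-salt 1 and Sham 2. *Hcrt* no longer passed without DOCA-salt 2, and neither *Npy* nor *Ghrh* did without Sham 2. Of 29 transcription factors *Dlx1*, which is known from GABAergic neurons, was higher (1.08, SE 0.12, FDR 1.4e-05, but 39.3 against 46.5 CPM in DOCA-salt 1), and *Meis2*, *Tbx3*, *Six3*, *Fezf1* and *Otp* were lower. *Tbx3* failed without Sham 2 and *Otp* without Sham 1. With DESeq2 *Hcrt*, *Npy*, *Ghrh*, *Otp* and *Tbx3* did not pass.

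Of 10 granule genes *Scg2* (0.46, SE 0.08, FDR 0.0026) and *Vgf* (0.82, SE 0.14, FDR 0.0020) were higher, both encoding granins that are packed with peptides. *Vgf* was at 152, 743, 291 and 342 CPM in source neurons against 183, 276, 182 and 178 CPM in other neurons, higher in all libraries but DOCA-salt 1, and it did not pass with DESeq2. None of the 12 processing genes passed, where 0.622% of all genes did. *Pcsk2* had 236, 148, 147 and 136 CPM in source neurons and 178, 234, 224 and 225 CPM in other neurons (log2 fold change -0.46, SE 0.12, FDR 0.092), and *Pcsk1* 163, 26.4, 26.7 and 32.1 CPM against 51.3, 30.03, 36.4 and 44.3 CPM. None of the 16 Gq genes passed, and of the 11 sortilin genes *Sorcs1* was higher (0.56, SE 0.12, FDR 0.018), a call lost when either Sham library was left out. Medians were 0.08 for processing genes, -0.04 for Gq genes, 0.12 for sortilin genes, 0.10 for granule genes, -0.22 for transmitter genes and -0.56 for transcription factors, beside -0.02 over all genes.

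The receptors themselves were not called in source neurons. *Ntsr1* had 0, 3, 6 and 5 UMIs in them, at 0, 5.28, 3.20 and 2.54 CPM against 5.25, 12.5, 4.97 and 6.99 CPM in other neurons, lower in all libraries with a log2 fold change of -1.20 (SE 0.38, unadjusted p 0.0046, FDR 0.23). *Ntsr2* was at 87.0, 123, 78.4 and 96.7 CPM in source neurons and differed by 0.07 (SE 0.10, FDR 0.95), and *Sort1* was at 44.9, 54.5, 78.4 and 56.0 CPM and differed by 0.12 (SE 0.11, FDR 0.89). For these a p above the threshold does not show that the levels were equal, and the standard errors give the precision reached.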

How the data were processed

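Nuclei of the ARC were profiled with 10x Genomics 3′ chemistry in 4 libraries. The authors deposited whole-number UMI counts for each gene in each barcode, made with Cell Ranger 3.0.1 on GRCm38/mm10, with no further normalization. As in the study, nuclei with over 200 and under 7000 genes, under 25000 UMIs and under 15% mitochondrial UMIs were kept (4.26%, 4.29%, 21.5% and 6.80% of 10765, 19754, 2805 and 8325 barcodes were removed). Doublets were removed only in an alternative, by the highest Scrublet scores (scanpy 1.11.5) at 0.8% per 1000 nuclei, since the automatic call marked 0, 0, 4 and 0 nuclei.

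A nucleus entered a non-neuronal class with at least 3 distinct markers and a summed marker share of at least 3 times that of its library and 2 times the ratio of the next class, and was a neuron with 3 neuronal markers and no such class. Peptide neurons had 5 or more UMIs and 10 times the share of the library. Mixed (1.36% to 2.63%) and ungated nuclei (0.409% to 15.7%) entered no class, and tanycytes and ependymal cells, under 10 nuclei in a library, were not tested.

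Counts were summed per library and class and compared with edgeR 4.0.16 in R 4.3.3 (TMM, filterByExpr, quasi-likelihood test, FDR under 0.05 over all genes tested), with the library as a block between classes. The study tested nuclei as replicates, and here the pool was the replicate. *Ntsr1* failed the filter for treatment in glia other than microglia and in vessels. Intervals are exact (scipy 1.17.1). Alternatives were DESeq2 1.42.0, RLE size factors, no filter, all deposited barcodes, no doublets, other gates and UMI limits, a replicate block, and leaving out each library, where the lone library of a group is taken to vary like the other group. The code was tested on simulated data. Positions and the coding sequence are from GENCODE on GRCm38.

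Named genes were the members, regional markers, the 10 called genes of largest rise and 5 of largest fall in source neurons that moved alike in every library, and the 3 genes most like each member among those reaching 10 CPM in a class. The members, gene lists and marker gates were chosen with earlier results of these data known.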

Additional observations from a re-analysis of the deposited data

How the results depend on the processing

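The level of *Nts* in DOCA-salt over Sham ranged from -2.78 to -2.18 (log2) when single libraries were left out and from -2.52 to -2.44 under the other settings. For *Ntsr1* over whole libraries the range was -0.10 to 1.12, in neurons -0.23 to 1.12 (FDR 0.035 at the top, without DOCA-salt 1), and between glutamatergic and GABAergic neurons -0.36 to 0.23, with 0.0073 under a gate of 2 markers. For *Ntsr2* it was -0.18 to 0.48 over whole libraries and -0.50 to 0.42 in neurons, and its value in source neurons was -0.0065 with 10 or more *Nts* UMIs and -0.052 with the share of 10 times. *Sort1* in oligodendrocytes ranged from -0.83 to -0.68. The cause of these turns was not tested beyond naming the library left out.

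The replicate numbers of the labels are shared names, and same-numbered pools deviated from their group means with a correlation of -0.274 over 16558 genes. With the numbers as a replicate block, 0 genes were called between treatments, as without it, *Ntsr2* in neurons turned to -0.039 and no call of a member changed. A crossed pairing of the numbers, chosen after seeing the data, called 58.

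Genes called over whole libraries were 109 with DESeq2, 142 without a filter and 1 to 771 when a library was left out. Genes called in source neurons were 307 with 10 or more *Nts* UMIs, 227 without a filter, 37 with DESeq2 and 46 to 252 when a library was left out. Of the 307 genes 82 and of the 37 genes 35 were among the 90.

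Source neurons as a share of neurons in DOCA-salt 1, DOCA-salt 2, Sham 1 and Sham 2 were 1.37%, 1.04%, 15.8% and 6.21% with 3 or more *Nts* UMIs, 0.0603%, 0.212%, 3.90% and 1.90% with 10 or more, and 0.0488%, 0.154%, 1.43% and 1.23% with 3 or more after thinning. With the share of 10 times, a limit that was stricter in Sham where the library level was higher, the Sham values were 1.42% and 1.88%. Over all deposited barcodes they were 17.8% and 4.65%. Sham shares exceeded DOCA-salt shares under each of these.

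Depth limits *Ntsr1* most, with 1 to 24 UMIs per library in oligodendrocytes. With 2 pools of 2 mice on a side, treatment differences in regional content between punches cannot be told apart from those in expression.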
